A study of Mus musculus with 16 samples.

Results

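Fetal testes and ovaries that lack germ cells were compared, to describe how far the somatic cells of the gonad differ between the sexes on their own. The comparison used 4 XY Nanos3-/- gonad samples (XY KO) and 4 XX Nanos3-/- gonad samples (XX KO), 8 of the 16 samples of the series, chosen by the sex and genotype in their labels. Each KO group had 1 sample of mouse embryonic gonad from each of embryonic days (E) 12.5, 13.5, 14.5 and 15.5, and the XY and XX samples of the same day were set against each other as a pair. The other 8 samples, XY Nanos3+/- (XY het) and XX Nanos3+/- (XX het) gonads of the same days, served for the sex difference with germ cells present. The titles name replicates 1 and 2 for every sample and do not say whether RNA, arrays or values were combined. The 4 days therefore stand in for replicates, and a true change of the XY minus XX difference between days counts as error. A change that both sexes share on a day is taken up by the term for that day. Both KO groups carry the same Nanos3 deletion, and strain, the number of embryos per sample and the extent of the attached mesonephros were not given in the sources used here. Of 16581 genes tested, 15951 lie on autosomes, and the results below concern these.

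In XY gonads, the Y-linked gene Sry switches on Sox9 in supporting cells, which become Sertoli cells, enclose the germ cells in cords and secrete anti-Müllerian hormone and Desert hedgehog. Hedgehog signalling then helps fetal Leydig cells to arise between the cords and to make androgens from cholesterol. In XX gonads the supporting cells become pre-granulosa cells, a fate that needs RSPO1, WNT4, stabilised beta-catenin and FOXL2. Primordial germ cells die without the RNA-binding protein NANOS3, so gonads that lack it develop with few or no germ cells.

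Values are given as levels, the log2 of the ratio of a probe's signal to the typical signal of the same probe over the samples, after scaling of the arrays, so levels of different genes cannot be compared. Differences are XY KO minus XX KO on the log2 scale, averaged over the 4 days, ± the standard error from limma (n = 4 pairs). A gene was called when its adjusted p was under 0.05 (limma, Benjamini-Hochberg over all genes tested). The precision is limited by the number of arrays: 4450 to 11174 of 41174 probes were at the detection limit in a KO sample. In simulated data of this design, 38 of 100 genes changed by 1 (log2) were called, and 73 of 100 changed by 2. The rest of the 16581 genes were left unchanged there, whereas 18.1% of autosomal genes were called in the measured data. Recovery with so large a share of changed genes was not tested. These are whole gonads, so fewer cells of a type and less RNA per cell cannot be told apart.

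The labels were checked first. Nanos3 itself had levels of -0.05, 0.03, -0.40 and -0.71 in XY KO gonads from E12.5 to E15.5, against -0.49, 0.15, -0.50 and -0.30 in XX KO gonads. It reached 0.92 to 3.49 in XY het gonads, but only -0.82 to 1.03 in XX het gonads, which overlap the knockouts. The sources used here do not say whether the deletion removes the sequence that the probe reads. The germ cell marker Ddx4, an RNA helicase, lay between -5.55 and -5.04 in XY KO gonads and between -6.31 and -5.30 in XX KO gonads, against 1.04 to 2.59 in all 8 het samples, so germ cell RNA was low in both KO groups. Xist, the RNA that silences an X chromosome, lay between -6.60 and -5.74 in XY KO gonads and between 1.86 and 2.73 in XX KO gonads. The Y-linked Kdm5d and Uty were at the limit in 3 and 4 of the 4 XX KO samples. The titles and sex fields therefore fit the data, although the description field calls the XX samples male as well.

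Without germ cells, 1433 autosomal genes were higher in XY KO than in XX KO gonads (8.98% of 15951) and 1448 were lower (9.08%), 18.1% in either direction. Of these, 838 (5.25%) were at least 2-fold higher and 857 (5.37%) at least 2-fold lower, and 342 and 281 differed at least 4-fold. The median difference over all autosomal genes was 0.03. The 4 levels of each sex did not overlap for 3175 autosomal genes (19.9%). Calls depended on single days for many genes: 593 of the higher and 596 of the lower calls held in each of the 4 fits that left out 1 day, which is 41.3% of all calls. Below, a call is said to hold when it passed in all 4 of these fits. Counts within gene lists are to be read beside the shares of all autosomal genes given here.

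**Figure D1:**
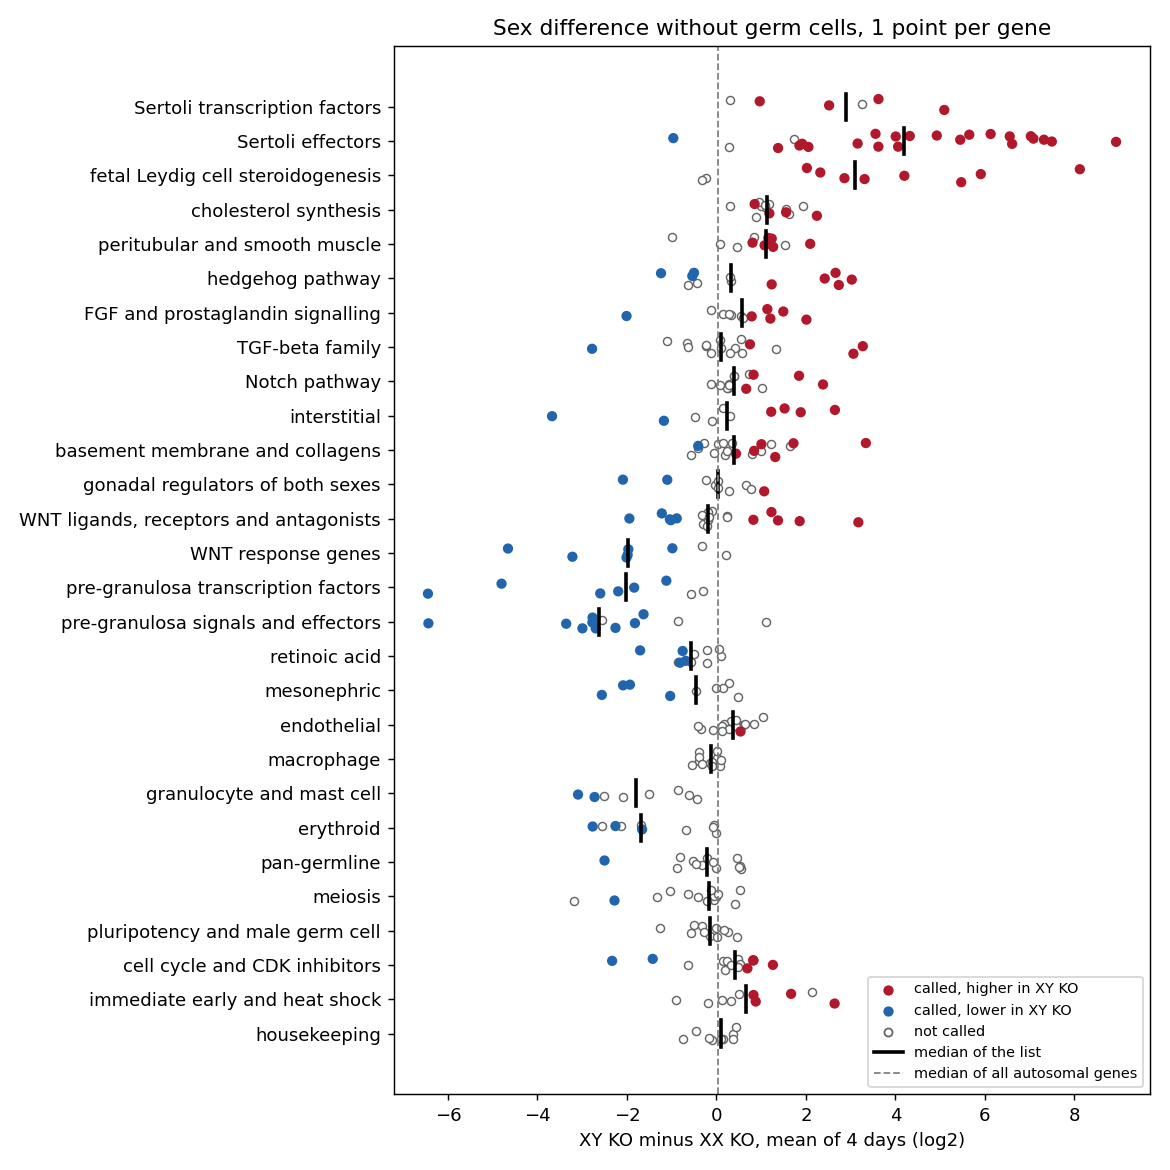
Difference between XY KO and XX KO gonads (x axis, log2, mean of 4 days) for each tested gene of 28 gene lists (rows). Filled points are called genes, open points are not, black bars are list medians and the dashed line is the median of all autosomal genes; the medians of Sertoli effectors (4.19) and fetal Leydig genes (3.08) lie far to the right, those of the pre-granulosa lists (-2.02 and -2.63) to the left.

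Sertoli cell transcription factors were higher in germ-cell-depleted testes: 4 of 6 rose and none fell, with a median difference of 2.89. Sox9, the factor that sets the Sertoli fate, had levels of 1.87, 1.59, 1.65 and 1.27 in XY KO gonads from E12.5 to E15.5, against -0.88, -1.33, -0.67 and -0.81 in XX KO gonads. The groups did not overlap, and the difference was 2.52 ± 0.20 (adjusted p = 4.9e-05, limma). Sox8, a paralog that acts with Sox9 to maintain Sertoli cells, had levels of 1.63, 1.86, 2.69 and 2.82 in XY KO gonads, against -3.29, -3.06, -2.80 and -2.21 in XX KO gonads, a difference of 5.09 ± 0.27. Sox10, the remaining member of the same SOX group, rose by 3.62 ± 0.33. Tcf21, a bHLH factor, rose by 0.97 ± 0.22, with a call that did not hold with E14.5 or E15.5 left out (largest adjusted p = 0.0621, limma).

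Dmrt1, which keeps Sertoli cells from turning into granulosa cells after birth, was not called. It had levels of -0.13, -0.63, 0.36 and 0.23 in XY KO gonads, against -0.57, -4.13, -4.25 and -4.25 in XX KO gonads. The sexes were close at E12.5 and far apart from E13.5 on, where XX KO gonads were at or near the detection limit. The difference of 3.26 ± 0.99 missed the threshold (adjusted p = 0.051, limma), and without E12.5 it was 4.20 (adjusted p = 0.0057). Gadd45g, a stress-response gene needed upstream of Sry, was not called either (0.30 ± 0.14).

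Of 24 tested genes made by Sertoli cells, 21 rose and 1 fell, with a median difference of 4.19, and 19 of the higher calls held. Amh, anti-Müllerian hormone, had levels of 1.64, 2.13, 2.23 and 2.29 in XY KO gonads from E12.5 to E15.5, against -5.14, -4.67, -4.81 and -5.19 in XX KO gonads. That is a difference of 7.03 ± 0.48, or 130-fold (adjusted p = 2.1e-05, limma), with each group tight and far from the other. Dhh, Desert hedgehog, had levels of 1.58, 1.52, 1.92 and 2.04 in XY KO gonads, against -5.87, -5.77, -4.81 and -4.83 in XX KO gonads, and rose by 7.08 ± 0.92, although its call was lost without E14.5 (7.20, adjusted p = 0.065, limma). Ptgds, the synthase of prostaglandin D2, rose by 7.50 ± 1.12.

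Hsd17b3, which turns androstenedione into testosterone and sits in fetal Sertoli cells, had levels of 1.58, 2.29, 3.14 and 3.23 in XY KO gonads, against -6.31, -6.89, -6.26 and -6.02 in XX KO gonads, a difference of 8.93 ± 0.72. Hsd17b1, another 17-beta-hydroxysteroid dehydrogenase, rose by 4.92 ± 0.76. Cyp26b1, which breaks down retinoic acid and so keeps male germ cells out of meiosis, had levels of 2.32, 2.24, 1.37 and 1.24 in XY KO gonads, against -2.51, -3.06, -4.70 and -4.34 in XX KO gonads. It rose by 5.45 ± 0.24 although both groups hold few germ cells, and both sexes showed lower levels at E14.5 and E15.5 than at E12.5. Aldh1a1, a retinaldehyde dehydrogenase, rose by 3.62 ± 0.23.

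Other Sertoli genes rose as well. The secreted Cbln4, Defb19 and Cst9 rose by 4.06 ± 0.17, 6.13 ± 0.24 and 6.55 ± 0.89. Tesc, a calcineurin-related protein, rose by 7.32 ± 1.02 and Col9a3, a collagen IX chain, by 6.61 ± 0.49. Inhbb, the beta-B subunit of activin and inhibin, rose by 1.92 ± 0.24. Cldn11, a tight junction protein of the cords, rose by 1.38 ± 0.17, and Fshr, the receptor of follicle-stimulating hormone, by at least 2.05, with 2 of its 4 XX KO samples at the limit. The Fshr call did not hold without E13.5 or E14.5.

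Not every Sertoli gene followed. Fgf9, which reinforces Sox9 in the early testis, had levels of 2.50, 1.43, 0.19 and 0.19 in XY KO gonads, against -1.11, -0.07, -0.82 and -0.66 in XX KO gonads. The groups did not overlap, but the paired differences shrank through 3.61, 1.51, 1.005 and 0.85 from E12.5 to E15.5, and the mean of 1.74 ± 0.66 did not pass (adjusted p = 0.10, limma). Krt18, a simple-epithelial keratin, was the only Sertoli list member that fell (-0.96 ± 0.25). Its call did not hold with any of E13.5, E14.5 or E15.5 left out.

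**Figure D2:**
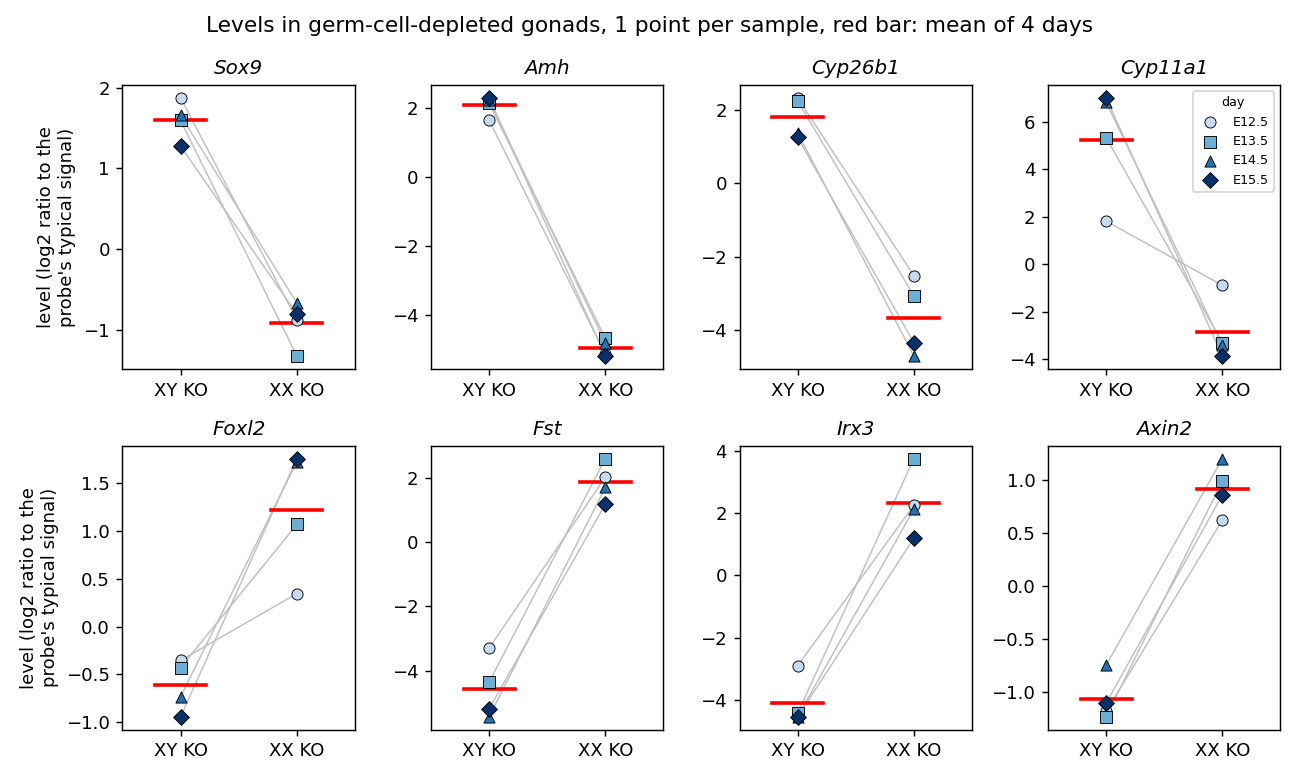
Levels (y axis, log2 ratio to the probe's typical signal) of 8 genes in XY KO (left) and XX KO (right) gonads, with 1 point per sample, a grey line joining the samples of a day and a red bar for the mean of 4 days. Sox9, Amh, Cyp26b1 and Cyp11a1 lie higher in every XY KO sample, and Foxl2, Fst, Irx3 and Axin2 in every XX KO sample; the E12.5 samples of Cyp11a1 and Foxl2 lie closest together.

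Regulators that act in gonads of both sexes showed mixed differences: of 10 tested, 1 rose and 2 fell, and the median was 0.04. Gata4, a zinc-finger factor needed for the genital ridge, differed by -0.03 ± 0.19, with a 95% interval of -0.47 to 0.41. Lhx9, a homeobox gene of the genital ridge, differed by 0.03 ± 0.40, while its other 2 probes gave -0.56 and -0.61 and the mean of all was -0.38 without a call. Nr5a1, which encodes the steroidogenic factor SF1, rose by 1.07 ± 0.30, but the groups overlapped and the call was lost with any 1 of the 4 days left out (0.83 to 1.27). Wt1, a zinc-finger factor of the coelomic epithelium and supporting cells, fell by 1.10 ± 0.17, and Emx2, a homeobox gene of the same epithelium, fell by 2.09 ± 0.17. Both of these calls held.

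Pre-granulosa transcription factors were lower in germ-cell-depleted testes than in germ-cell-depleted ovaries: 6 of 8 fell, none rose, and the median was -2.02. Foxl2, a forkhead factor of the granulosa lineage, had levels of -0.35, -0.43, -0.73 and -0.94 in XY KO gonads from E12.5 to E15.5, against 0.34, 1.07, 1.73 and 1.76 in XX KO gonads. The groups did not overlap, with the smallest gap at E12.5. It fell by 1.84 ± 0.46 (adjusted p = 0.022, limma), and the call was lost without E13.5, E14.5 or E15.5 (-1.95, -1.63 and -1.55). Irx3, an Iroquois homeobox gene expressed in pre-granulosa cells, had levels of -2.91, -4.44, -4.55 and -4.55 in XY KO gonads, against 2.26, 3.76, 2.13 and 1.20 in XX KO gonads. It fell by 6.45 ± 0.43, with 2 of the XY KO samples at the limit, and its neighbour Irx5 fell by 4.80 ± 0.45, with 3 at the limit. Msx1, a homeobox target of BMP signals, fell by 2.60 ± 0.27.

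Lef1, a DNA-binding partner of beta-catenin, fell by 2.20 ± 0.19. Irx1, the third Iroquois gene measured, fell by 1.12 ± 0.23, a call that did not hold without E13.5 or E14.5. It was also lost when both probes were averaged (-0.73), the other probe being at the limit in 7 of the 8 KO samples. Runx1, a factor enriched in pre-granulosa cells, was not called (-0.31 ± 0.20), but its other probe gave -3.80, and the mean of both was -2.05 (adjusted p = 0.00068, limma), so these probes disagree. Bach2 was not called either (-0.58 ± 0.28).

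Signals and effectors of pre-granulosa cells were lower as well: 9 of 12 fell, none rose, and the median was -2.63. Fst, follistatin, which binds activins, had levels of -3.29, -4.35, -5.43 and -5.18 in XY KO gonads from E12.5 to E15.5, against 2.02, 2.60, 1.70 and 1.18 in XX KO gonads. It fell by 6.44 ± 0.44 (adjusted p = 2.1e-05, limma). Rspo1, which potentiates WNT signals at the start of ovarian development, had levels of -1.29, -1.38, -1.13 and -1.24 in XY KO gonads, against 1.39, 0.73, 2.06 and 1.87 in XX KO gonads, a difference of -2.77 ± 0.22. Wnt4, a ligand that opposes the testis programme, had levels of -0.86, -0.42, -0.30 and 0.02 in XY KO gonads, against 1.64, 1.30, 1.18 and 0.84 in XX KO gonads. It fell by 1.63 ± 0.26, with the widest gap at E12.5 and the narrowest at E15.5.

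Bmp2, a BMP ligand, had levels of -0.76, -1.48, -1.40 and -1.52 in XY KO gonads, against 2.58, 1.45, 1.72 and 1.09 in XX KO gonads, and was 7.98-fold lower in XY KO gonads. Kitl, the ligand of the KIT receptor on germ cells, fell by 2.70 ± 0.17. Lypd6, a membrane-anchored WNT modulator, fell by 3.36 ± 0.28. Lgr5, an R-spondin receptor of the ovarian surface and cortex, had levels of 0.04, -1.07, -1.14 and -1.60 in XY KO gonads, against 0.33, 1.92, 2.48 and 2.59 in XX KO gonads. The paired difference grew with each day, through -0.29, -2.99, -3.62 and -4.19. The mean of -2.77 ± 0.70 passed, but not without E13.5, E14.5 or E15.5, and the other probe of the gene was at the limit in 7 of the 8 KO samples. Cdkn1b, which holds pre-granulosa cells out of the cell cycle, was not called (-0.85 ± 0.30).

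Response genes of canonical WNT signalling were lower too: 6 of 8 fell in XY KO gonads, none rose, and the median was -1.98. Axin2, a feedback inhibitor commonly used as a WNT reporter, had levels of -1.18, -1.23, -0.75 and -1.10 in XY KO gonads from E12.5 to E15.5, against 0.62, 0.99, 1.20 and 0.86 in XX KO gonads. The paired differences were alike on all 4 days, and the mean was -1.99 ± 0.13 (adjusted p = 2e-05, limma). Rnf43, an E3 ligase that removes Frizzled receptors, fell by 3.22 ± 0.22, while its other probe, at the limit in all 4 XY KO samples, gave -0.60. Nkd1 and Notum, an intracellular and a secreted antagonist, fell by 1.97 ± 0.25 and 2.01 ± 0.31. Znrf3, the partner of Rnf43, and Ccnd1, a cyclin gene that also answers to other signals, were not called (-0.32 ± 0.21 and 0.21 ± 0.15).

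Sp5, a zinc-finger repressor that WNT signals induce, showed the largest difference of the 8 response genes. It had levels of -2.02, -2.81, -3.28 and -3.99 in XY KO gonads, against 1.64, 1.32, 1.99 and 1.60 in XX KO gonads, a difference of -4.66 ± 0.45 that held. Its promoter is shown because it is the only 1 of the 4 response genes with a sequence available here that holds TCAAAG, the core that TCF/LEF factors bind, within 250 bases before and 50 bases after the start (chr2:70474673-70474972, plus strand, RefSeq on GRCm38.p6). Capitals mark the matches, both on the strand opposite to the gene, 204 and 104 bases before the start.
Sp5: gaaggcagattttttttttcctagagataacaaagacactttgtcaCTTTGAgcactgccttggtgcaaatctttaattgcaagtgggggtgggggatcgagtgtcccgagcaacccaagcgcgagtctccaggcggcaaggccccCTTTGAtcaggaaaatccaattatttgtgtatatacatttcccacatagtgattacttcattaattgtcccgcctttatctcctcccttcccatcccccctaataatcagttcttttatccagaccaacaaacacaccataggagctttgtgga
Among all 31396 autosomal windows of this kind, 15.9% hold TCAAAG on either strand. The match describes these letters only.

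WNT ligands, receptors and antagonists moved in both directions: of 19 tested, 5 rose and 5 fell, and the median was -0.19. Frzb, a secreted antagonist, had levels of 1.10, 2.05, 1.63 and 1.45 in XY KO gonads, against -1.33, -2.15, -1.34 and -1.64 in XX KO gonads, and rose by 3.17 ± 0.45. The antagonists Dkk1 and Dkk3 rose by 1.86 ± 0.39 and 1.23 ± 0.22, the Dkk1 call being lost without E14.5 (1.79, adjusted p = 0.079, limma). Among ligands, Wnt2b fell by 1.95 ± 0.24, Wnt9a fell by 1.22 ± 0.30, and Wnt5a, a ligand of non-canonical signalling, rose by 1.38 ± 0.38. The Wnt9a and Wnt5a calls did not hold. Lgr4, an R-spondin receptor, fell by 0.89 ± 0.17. Rspo2, another R-spondin, was at the limit in all 4 XY KO samples and had levels of 1.74, 2.24, 1.54 and 1.03 in XX KO gonads, which makes it at least 19.7-fold lower in XY KO gonads.

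In the TGF-beta family, 3 of 17 tested genes rose and 1 fell, near the 18.1% of all autosomal genes called in either direction. Inha, the alpha subunit of inhibin, had levels of 1.39, 2.52, 3.13 and 3.55 in XY KO gonads from E12.5 to E15.5, against 0.04, -0.68, -0.57 and -0.43 in XX KO gonads, and rose by 3.06 ± 0.47. Inhba, the activin subunit that Leydig cells use to drive Sertoli cell division, had levels of 0.92, 2.31, 2.04 and 2.995 in XY KO gonads, against -0.66, -0.66, -1.63 and -1.86 in XX KO gonads, and rose by 3.27 ± 0.46. With follistatin lower in the same samples, both activin subunits and their binding protein differed in opposite directions. Bmpr1b, a BMP receptor, fell by 2.78 ± 0.23. Amhr2, the receptor for anti-Müllerian hormone, was not called (-1.10 ± 0.38). Nodal, Tdgf1 and Lefty1, a ligand, its co-receptor and an inhibitor, were not called in KO gonads (0.42, 0.54 and 1.32), although they were in het gonads (2.84, 1.48 and 4.91). The KO and het differences of these genes were not called as unequal.

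Of 12 genes in the FGF and prostaglandin list, 5 rose and 1 fell. Etv5, an ETS factor induced by FGF, had levels of 1.23, 0.56, 0.37 and -0.12 in XY KO gonads, against -0.36, -1.49, -2.16 and -1.98 in XX KO gonads. Levels were lower at E15.5 than at E12.5 in both sexes, the groups of each day stayed apart, and the mean difference was 2.01 ± 0.28. Etv4 and Dusp6, an ETS factor and an ERK phosphatase, rose by 1.49 ± 0.20 and 1.20 ± 0.18. Spry1 and Spry4, feedback inhibitors, rose by 0.79 ± 0.17 and 1.14 ± 0.34, but neither call held, and Spry4 also lost its call with the arrays as deposited and when averaged with a probe at the limit in all 16 samples (0.57). Spry2, another inhibitor of this family, was not called (-0.13 ± 0.16). Fgfr2, the receptor that FGF9 uses in supporting cells, fell by 2.01 ± 0.25.

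Hedgehog targets rose together with Dhh. Of 12 pathway genes tested, 5 rose and 3 fell. Gli1, a transcription factor that reports hedgehog activity, had levels of 1.30, 1.59, 1.88 and 1.93 in XY KO gonads from E12.5 to E15.5, against -0.36, -1.27, -1.96 and -1.82 in XX KO gonads, and rose by 3.02 ± 0.34 (adjusted p = 0.00032, limma). Ptch1, the receptor, rose by 2.73 ± 0.39, and Hhip, a decoy receptor, by 2.66 ± 0.27; both are induced by the pathway. Of the other Ptch1 probes, 2 above the limit in all samples gave 2.59 and 0.64, and the mean of all 4 probes was 1.62. Shh, Sonic hedgehog, was at the limit in all 4 XX KO samples and was at least 5.35-fold higher in XY KO gonads, with levels of 0.40, 1.87, 2.95 and 2.62 in XY KO gonads against a limit of -0.46. Ihh, Indian hedgehog, was not called (0.33 ± 0.51). The co-receptors Boc and Gas1 fell by 1.24 ± 0.15 and 0.54 ± 0.13, and Gli3, mainly a repressor, fell by 0.50 ± 0.13. The Gas1 and Gli3 calls did not hold, and both were lost with the arrays as deposited (-0.45 and -0.42). The other Gli3 probe, above the limit in all samples, gave -0.01.

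Fetal Leydig cell genes were higher in testes without germ cells: 8 of 10 tested rose, none fell, and the median was 3.08. Cyp11a1, which cuts the side chain of cholesterol, had levels of 1.82, 5.33, 6.84 and 7.02 in XY KO gonads from E12.5 to E15.5, against -0.89, -3.30, -3.42 and -3.87 in XX KO gonads. The paired differences were 2.71, 8.64, 10.25 and 10.89, so the sexes already differed at E12.5 and stood far apart a day later. The mean was 8.12 ± 1.51 (adjusted p = 0.0054, limma), and the call was narrowly lost without E13.5 or E14.5 (7.95 and 7.41, adjusted p = 0.06 and 0.052). Cyp17a1, which makes the androgen precursors, had levels of 1.37, 4.60, 5.25 and 5.42 in XY KO gonads, against -2.26, -1.59, -1.43 and -1.71 in XX KO gonads, a difference of 5.91 ± 0.69. Star, which carries cholesterol into mitochondria, had levels of 1.43, 4.22, 5.58 and 5.72 in XY KO gonads, against -1.01, -1.37, -1.14 and -1.41 in XX KO gonads, a difference of 5.47 ± 0.88. The Star call was lost when only the 8 KO samples were fitted (adjusted p = 0.054, limma).

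The 3-beta-hydroxysteroid dehydrogenases rose with them. Hsd3b1 had levels of 1.16, 3.28, 3.56 and 3.86 in XY KO gonads, against -3.28, -0.82, -0.38 and -0.46 in XX KO gonads, so levels were higher at E15.5 than at E12.5 in both sexes while the difference stayed at 4.20 ± 0.19. Its paralog Hsd3b6 had levels of 0.87, 2.39, 3.62 and 3.85 in XY KO gonads, against 0.16, -1.11, -0.84 and -0.73 in XX KO gonads, and rose by 3.31 ± 0.75, a call that did not hold without E13.5, E14.5 or E15.5. These genes are close copies on chromosome 3, and a probe for 1 may also read the other. Their promoter windows, chr3:98859745-98860044 for Hsd3b1 and chr3:98814394-98814693 for Hsd3b6, both on the minus strand, are printed below and were not aligned to each other. Capitals mark AGATAA, a sequence that GATA factors bind, on either strand: 134 bases before the start of Hsd3b1 on the opposite strand, and 31 bases before that of Hsd3b6 on the same strand.
Hsd3b1: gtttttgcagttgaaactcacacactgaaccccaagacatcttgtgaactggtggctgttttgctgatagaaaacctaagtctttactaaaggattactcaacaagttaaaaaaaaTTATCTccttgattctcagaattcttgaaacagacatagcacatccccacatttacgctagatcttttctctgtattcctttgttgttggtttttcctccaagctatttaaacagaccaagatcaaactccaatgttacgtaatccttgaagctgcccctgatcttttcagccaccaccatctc
Hsd3b6: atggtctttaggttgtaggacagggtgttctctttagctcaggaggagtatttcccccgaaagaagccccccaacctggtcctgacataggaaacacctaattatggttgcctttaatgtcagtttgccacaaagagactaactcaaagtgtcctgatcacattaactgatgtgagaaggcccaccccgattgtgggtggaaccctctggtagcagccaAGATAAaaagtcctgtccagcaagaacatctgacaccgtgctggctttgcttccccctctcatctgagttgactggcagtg
AGATAA is in 11.2% of all autosomal windows and in 2 of the 5 Leydig list genes whose window was available.

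Scarb1, the receptor that takes up cholesterol from lipoproteins, and Fdx1, the ferredoxin that feeds electrons to CYP11A1, rose by 2.86 ± 0.44 and 2.32 ± 0.39. Gramd1b, a sterol transporter, rose by 2.02 ± 0.51, without holding. Cyb5a and Vsnl1 were not called (-0.24 ± 0.17 and -0.32 ± 0.26). Of the adrenocortical markers, Mc2r, the ACTH receptor, rose by 1.36 ± 0.20. Cyp21a1, a steroid 21-hydroxylase, rose by at least 1.13, since 3 of its 4 XX KO samples were at the limit. Fetal testis can express both.

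The cholesterol synthesis genes, which supply the substrate, shifted upwards more weakly: 4 of 14 rose, none fell, and the median was 1.14, but none of the 4 calls held. Without E12.5, 13 of the 14 were called higher, against 0 without E13.5, 0 without E14.5 and 1 without E15.5 (limma). List medians by day were -0.22, 1.14, 1.86 and 2.03. Fdps, farnesyl diphosphate synthase, had levels of -0.38, 1.25, 2.38 and 2.33 in XY KO gonads from E12.5 to E15.5, against -1.20, -0.98, -0.69 and -0.53 in XX KO gonads, and rose by 2.24 ± 0.51. The other Fdps probe, above the limit in all samples, gave 0.92. Msmo1 and Sqle, a sterol oxidase and squalene epoxidase, rose by 1.56 ± 0.32 and 1.18 ± 0.28. Lss, lanosterol synthase, had levels of -0.28, 1.44, 3.004 and 3.17 in XY KO gonads, against -0.11, -0.07, -0.12 and -0.11 in XX KO gonads. Its XX KO levels were nearly flat and its XY KO levels climbed, and the mean of 1.94 ± 0.63 missed the threshold (adjusted p = 0.063, limma) but passed without E12.5 (2.64, adjusted p = 0.0053).

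**Figure D3:**
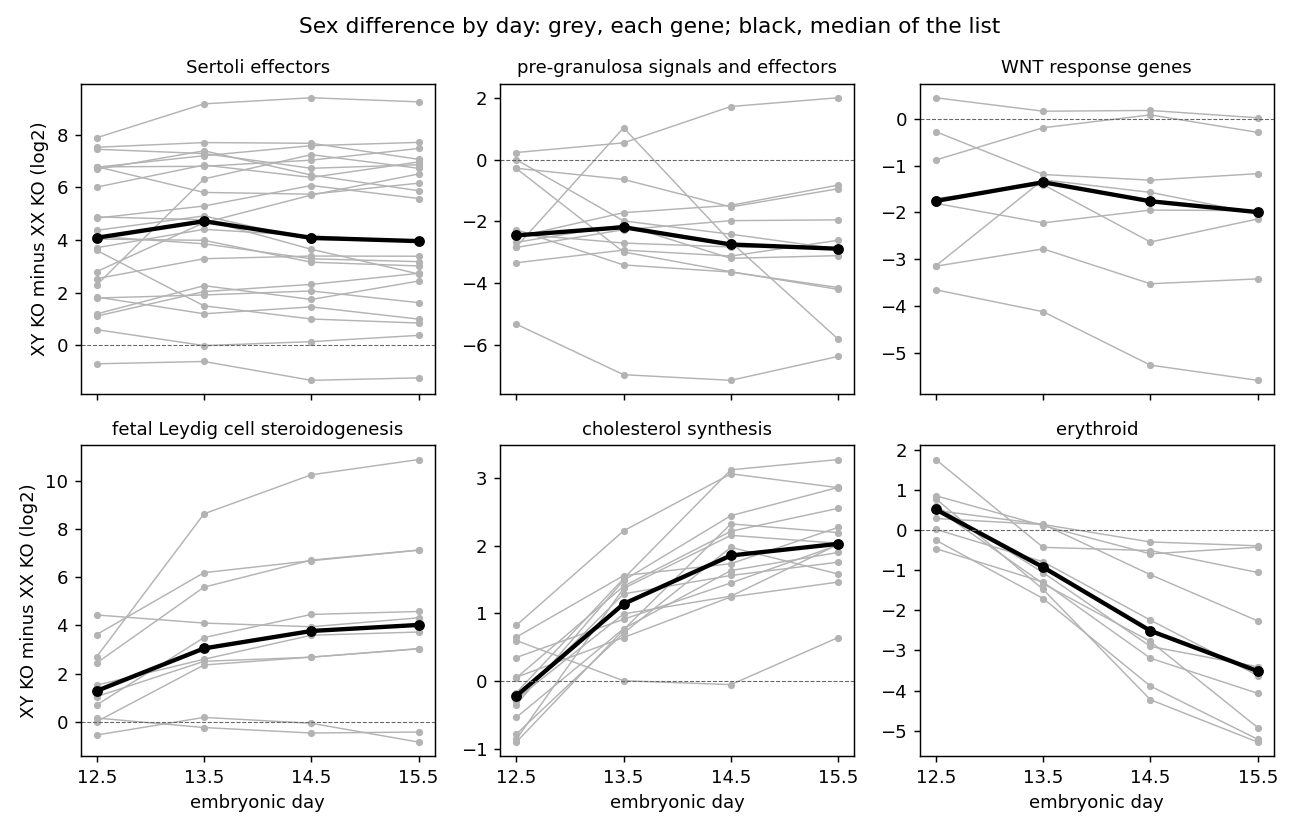
Difference between XY KO and XX KO gonads (y axis, log2) against embryonic day (x axis) for the genes of 6 lists, grey for each gene and black for the list median. The Leydig median goes through 1.28, 3.05, 3.77 and 4.02, the cholesterol median through -0.22, 1.14, 1.86 and 2.03, and the erythroid median through 0.51, -0.93, -2.51 and -3.52.

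Contractile genes of peritubular and smooth muscle cells were higher in XY KO gonads: 7 of 12 rose, none fell, and the median was 1.12. Of these calls 4 held, and those of Tagln, Actg2 and Tpm1 did not. Acta2, smooth muscle actin, had levels of 0.52, 1.32, 2.01 and 2.06 in XY KO gonads, against -2.65, -0.13, 0.35 and -0.05 in XX KO gonads, and rose by 2.09 ± 0.31. The lowest XY KO level stood just above the highest XX KO level, and of the other 4 Acta2 probes 3 gave 0.33, 0.90 and 1.65 and 1 was at the limit in all 16 samples. Smtn and Mylk, smoothelin and myosin light chain kinase, rose by 1.17 ± 0.12 and 1.27 ± 0.20. Myh11, the smooth muscle myosin heavy chain, was not called (-0.98 ± 0.55).

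Of 10 interstitial cell genes, 4 rose and 2 fell. Pdgfra, a receptor of interstitial progenitors, and its ligand Pdgfa rose by 1.52 ± 0.25 and 1.22 ± 0.22. Vcam1, an adhesion molecule, rose by 1.88 ± 0.24. Cxcl12, a chemokine that attracts germ cells, had levels of 0.41, 1.81, 3.29 and 3.97 in XY KO gonads, against -0.11, -0.38, -0.13 and -0.48 in XX KO gonads, and rose by 2.65 ± 0.70, but the call was lost without E13.5, E14.5 or E15.5. Thbs2, thrombospondin 2, had levels of -2.73, -1.79, -0.96 and -0.32 in XY KO gonads, against 0.70, 2.42, 2.80 and 2.99 in XX KO gonads. Its levels were higher on each later day in both sexes, and it fell by 3.67 ± 0.22.

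Basement membrane and collagen genes changed in a minority: 6 of 20 rose and 1 fell, with 2 of the 7 calls holding. These were Col4a1, a chain of the basement membrane network, at 1.31 ± 0.15, and Col18a1 at 1.72 ± 0.25. Col9a1 had levels of 3.40, 2.46, 0.09 and -0.88 in XY KO gonads, against -2.06, -2.39, -0.57 and -3.26 in XX KO gonads, and its difference of 3.34 ± 0.66 did not hold without E13.5. In the Notch pathway 4 of 14 genes rose and none fell. Heyl, a Notch target, had levels of 0.53, 1.81, 1.86 and 1.88 in XY KO gonads, against -1.83, -0.57, -0.39 and -0.65 in XX KO gonads. It rose by 2.38 ± 0.14, while Jag1, a Notch ligand, rose by 1.85 ± 0.48 without holding.

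In the retinoic acid list, which leaves out the Sertoli genes Cyp26b1 and Aldh1a1, 4 of 11 genes fell, none rose, the median was -0.57, and no call held. Crabp1, a retinoic acid binding protein, had levels of -0.58, -1.10, -1.14 and -1.71 in XY KO gonads, against -0.12, 0.14, 1.09 and 1.18 in XX KO gonads, and fell by 1.71 ± 0.33. Rarb, a receptor that is itself a target of retinoic acid, fell by 0.76 ± 0.14, and the retinoid dehydrogenase genes Dhrs3 and Rdh10 fell by 0.81 ± 0.18 and 0.69 ± 0.16. Aldh1a2, the main enzyme of retinoic acid synthesis in the mesonephros, was not called (-0.57 ± 0.22).

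Of 14 cell cycle genes, 4 rose and 2 fell, and the higher calls of Ccna2 and Aurkb did not hold. Cdk1, the mitotic kinase, had levels of 0.55, 0.38, 0.93 and 0.69 in XY KO gonads, against -0.29, -0.73, -0.71 and -0.75 in XX KO gonads, and rose by 1.26 ± 0.16. Plk1, another mitotic kinase, rose by 0.83 ± 0.14, but Mki67, a general marker of cycling cells, was not called (0.16 ± 0.23). The inhibitors Cdkn1a and Cdkn1c fell by 2.33 ± 0.23 and 1.43 ± 0.24, and both calls held. Of 10 immediate early and heat shock genes, 4 rose and none fell. Egr1, an early response factor, rose by 1.67 ± 0.20, while Fos was not called (0.50 ± 0.21). Hspa1a, an inducible chaperone, had levels of 0.29, 2.70, 3.46 and 3.73 in XY KO gonads, against -0.20, -0.17, 0.16 and -0.16 in XX KO gonads, and rose by 2.64 ± 0.63 without holding.

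Outside these lists, the genes with the largest differences in each direction that were above the limit in all 8 KO samples included several with little known role in the gonad. Jak3, a cytokine receptor kinase, had levels of 1.75, 4.99, 5.64 and 6.35 in XY KO gonads, against -2.04, -2.45, -3.09 and -2.75 in XX KO gonads, a difference of 7.27 ± 1.05 that held, although its 3 probes, all above the limit, ranged from 0.53 to 8.44. Gsta1, a glutathione transferase, rose by 6.73 ± 1.15, Cbln1, a paralog of Cbln4, by 6.57 ± 0.43, and Sct, the hormone secretin, by 6.48 ± 0.70. Nt5e, which makes adenosine, and Cstdc1, a cystatin-like gene, rose by 6.46 ± 0.36 and 6.14 ± 0.29. Clps, pancreatic colipase, had levels of 0.45, 5.18, 5.89 and 6.38 in XY KO gonads, against -2.12, -0.58, -1.65 and -1.75 in XX KO gonads. The remaining genes of this kind, Casq2, Lefty2, Mmd2, Miox and Slc9a2, rose by 5.30 to 5.77. Lefty2, an inhibitor of NODAL signals, is therefore higher in XY KO gonads (5.54 ± 0.66) where Nodal itself was not called.

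In the other direction, Calb1, a calcium-binding protein, had levels of -1.65, -3.43, -3.72 and -4.36 in XY KO gonads, against 2.26, 3.60, 3.93 and 3.75 in XX KO gonads. It fell by 6.67 ± 0.80 and the gap was smallest at E12.5. Stum, a homolog of a fly mechanosensory gene, had levels of -3.77, -3.78, -4.27 and -3.94 in XY KO gonads, against 2.41, 1.82, 2.69 and 1.77 in XX KO gonads, with similar gaps on all days (-6.11 ± 0.28). Nos1, neuronal nitric oxide synthase, fell by 5.05 ± 0.40, and Hsd17b2, an enzyme that inactivates testosterone and oestradiol, fell by 4.73 ± 0.65. Rasgrp1, a Ras exchange factor, fell by 6.51 ± 0.64, with its other probe, at the limit in 2 XY KO samples, at -1.36. The other 7, Meltf, Lypd1, Svs6, H2-Q1, Tnfrsf19, Cd244a and Crnde, fell by 4.63 to 5.09.

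Some genes could be bounded on 1 side only. Of the genes called higher, 28 were at the limit in all 4 XX KO samples, and of those called lower, 25 were at the limit in all 4 XY KO samples. Serpina5, a protease inhibitor, had levels of 2.11, 4.75, 4.68 and 5.81 in XY KO gonads against a limit of -3.86, and was at least 294-fold higher. The other Serpina5 probe, also at the limit in all XX KO samples, gave a smaller bound (5.26 on the log2 scale), and with no common limit or after quantile normalization the difference was 5.85 or 5.64. Rasgrf2, a Ras exchange factor, was at least 43.7-fold higher in XY KO gonads, with paired differences of 5.16 to 5.66. Oprk1, the kappa opioid receptor, was at its limit of -0.37 in XY KO gonads, against levels of 1.68, 4.84, 4.93 and 4.98 in XX KO gonads, and was at least 22.3-fold lower in XY KO gonads. Its call was lost without E13.5 or E14.5 (largest adjusted p = 0.0811, limma).

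Most of the sex difference without germ cells was also found with them. In het gonads, 1871 autosomal genes were higher in XY than in XX gonads (11.7%) and 1883 were lower (11.8%). Of the genes called in KO gonads, 1952 were called in the same direction in het gonads, which is 67.8% of the KO calls and 52.0% of the het calls, and 20 were called in opposite directions. Both differences came from the same limma fit with a shared spread for each gene, so the KO and het calls are not independent. Amh rose by 7.03 in KO and by 6.36 in het gonads, Sox9 by 2.52 and 2.78, Cyp11a1 by 8.12 and 8.29, and Fst fell by 6.44 and 6.38. In the lists, all 4 called Sertoli factors, all 22 called Sertoli effectors, all 6 called pre-granulosa factors, all 9 called pre-granulosa signals and all 8 called Leydig genes were called in the same direction in het gonads.

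**Figure D4:**
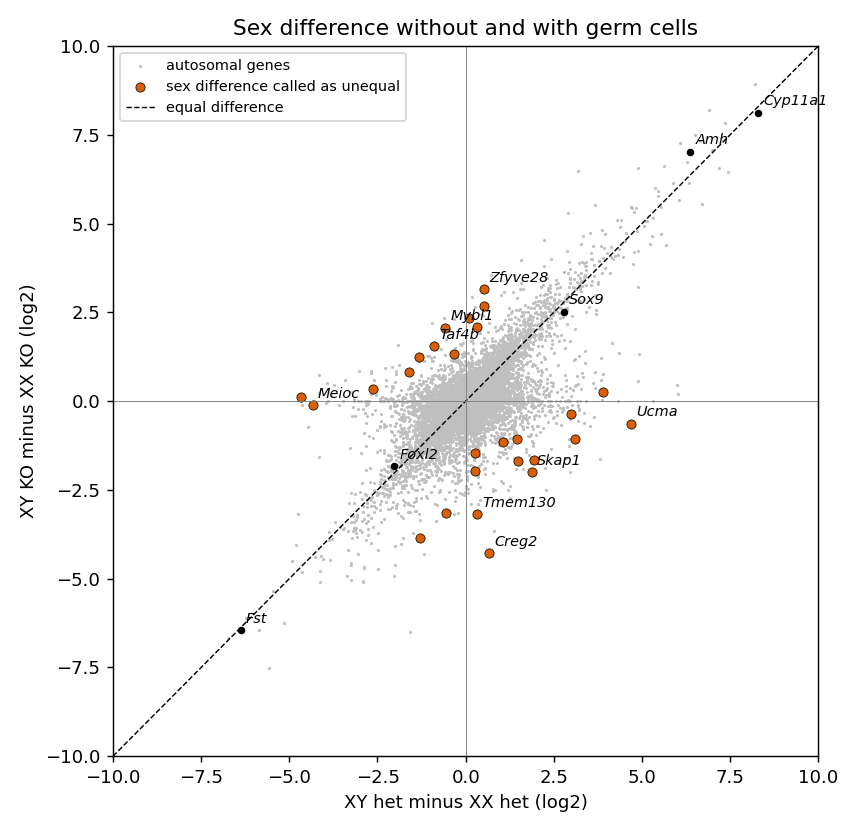
Sex difference in KO gonads (y axis, XY KO minus XX KO, log2) against that in het gonads (x axis, XY het minus XX het, log2) for 15951 autosomal genes. Grey points are genes, orange points are the 27 genes whose differences were called as unequal, and the dashed line marks equal differences; Amh, Sox9, Cyp11a1, Foxl2 and Fst lie near the line.

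The difference between the KO and het sex differences was tested by the interaction in the same limma fit. It was called for 27 autosomal genes (0.169%), 12 more positive (0.0752%) and 15 more negative (0.094%) in KO gonads, and for 1843 at an unadjusted p under 0.05. The count rested on single days: without E13.5 or E14.5 it was 0 (1187 and 779 at an unadjusted p under 0.05), without E15.5 it was 2, and without E12.5 it was 586. None of the Sertoli, pre-granulosa, WNT, hedgehog or Leydig list members was among the 27. With 0.169% of all autosomal genes called, few or none would be called in lists of this size. Their absence therefore does not show that these sex differences are equal in KO and het gonads. Meioc, a meiosis gene, was the only member of any list (4.22 ± 0.61).

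Among the 27 were genes called higher in XY KO gonads that were not called, or were called lower, in XY het gonads. Mybl1, a MYB factor that germ cells express, had levels of 0.04, -0.67, 0.42 and 0.32 in XY KO gonads, against -2.24, -2.62, -1.72 and -1.57 in XX KO gonads, a difference of 2.07 ± 0.19. In het gonads it was not called (-0.58), and the interaction was 2.65 ± 0.27 (adjusted p = 0.0087, limma), although the mean of its 3 probes was not called (1.11). Of the other 2 probes, 1 was at the limit in all 16 samples and 1 in 7 of the 8 KO samples. Zfyve28, an endosomal regulator of EGF receptor turnover, had levels of 0.58, 0.04, -0.08 and 0.81 in XY KO gonads, against -3.49, -2.19, -2.99 and -2.59 in XX KO gonads. Its XX het gonads lay between -0.60 and 0.00, and the interaction was 2.64 ± 0.35. Taf4b, a TFIID subunit active in germ cells, was higher in XY by 1.54 ± 0.17 in KO gonads and lower in XY by 0.89 in het gonads.

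In the other direction, Creg2, a secreted glycoprotein, had levels of -4.37, -4.60, -4.60 and -4.13 in XY KO gonads, against -1.62, -0.15, 0.69 and 0.54 in XX KO gonads. In XY het gonads it lay between 0.01 and 1.37, and in XX het gonads between -0.52 and 0.21, so the XY KO levels were the lowest of the 4 groups, and the interaction was -4.95 ± 0.54 (adjusted p = 0.0098, limma). Tmem130, a transmembrane protein, had levels of -3.11, -3.02, -2.99 and -2.75 in XY KO gonads, against -1.03, 0.50, 0.78 and 0.58 in XX KO gonads, with an interaction of -3.51 ± 0.39. Skap1, an adaptor of immune cell adhesion, was lower in XY by 1.99 ± 0.28 in KO gonads and higher in XY by 1.88 in het gonads. Ucma, a secreted protein of cartilage, had no called difference in KO gonads (-0.64 ± 0.42) and was higher in XY by 4.67 in het gonads.

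The change of the difference from day to day was tested as a slope per day, which was called for 170 autosomal genes (1.07%), 46 upwards (0.288%) and 124 downwards (0.777%), and for 2616 at an unadjusted p under 0.05. With 4 residual degrees of freedom this test is weak: no slope was called by limma when only the 8 KO samples were fitted (2724 at an unadjusted p under 0.05) or when any 1 day was left out. Gsta1 had the steepest upward slope (2.38 ± 0.29 per day), followed by Slc47a1, a cation exporter (2.09 ± 0.24). Slc47a1 had levels of 0.49, -0.19, 2.07 and 2.81 in XY KO gonads, against 2.11, -0.57, -1.42 and -1.49 in XX KO gonads, so that its direction turned between E12.5 and E13.5. Inhba was called upwards as well (1.05 per day) and Crabp1 downwards (-0.83 per day). No Leydig or cholesterol list gene was called for its slope. With 1.07% of all autosomal genes called, few or none would be called in lists of this size. The median slopes of the Leydig and cholesterol lists were 0.85 and 0.77 per day, against -0.02 for all autosomal genes.

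Downward slopes included genes of blood cells. Gfi1b, a factor of the erythroid lineage, had levels of 0.45, 0.13, -0.94 and -1.08 in XY KO gonads from E12.5 to E15.5, against 0.40, 2.02, 3.63 and 5.20 in XX KO gonads, a slope of -2.16 ± 0.24 per day. Cldn13, a claudin, had a slope of -2.29 ± 0.32 per day. Klf1, the master regulator of erythroid genes, had levels of 1.05, 1.03, -0.14 and 0.06 in XY KO gonads, against 0.27, 2.51, 4.09 and 5.34 in XX KO gonads, a slope of -2.09 per day. The difference was 0.78 at E12.5 and negative on the later days, with XX KO levels higher on each later day.

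Of the erythroid list, 3 of 10 genes fell over the 4 days (Epb42, Tal1 and Hemgn), none held, and 5 had a downward slope. The mean ratio over the list ran from 0.817 to 3.80 in XY KO gonads and from 2.51 to 17.0 in XX KO gonads, against 0.398 to 2.76 in XY het and 0.408 to 1.36 in XX het gonads. The embryonic globin genes Hba-x and Hbb-y were not called (-0.06 ± 0.46 and -0.07 ± 0.19). Of 8 granulocyte and mast cell genes 2 fell, the mast cell proteases Cpa3 and Cma1 (-3.09 ± 0.83 and -2.72 ± 0.80), and neither held. Cpa3 had levels of -0.23, -0.21, 1.40 and -0.56 in XY KO gonads, against 0.44, 2.32, 4.45 and 5.57 in XX KO gonads. The mean ratio over this list ran from 0.612 to 3.13 in XY KO gonads and from 1.22 to 20.3 in XX KO gonads. The list median of the difference was only -0.58 at E15.5, although Cpa3 was far lower in XY KO gonads on that day. Which members carry the highest mean ratio was not tested. The part of blood cell RNA in the other lower calls was not tested.

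Of 16 endothelial genes only Cdh5, a cadherin of vessel walls, was called (0.52 ± 0.14, without holding), below the 18.1% of all autosomal genes called. The list median was 0.38, against 0.03 for all autosomal genes, and 6 uncalled members had an unadjusted p under 0.05 (limma). Pecam1 was not called (-0.07 ± 0.40). Of 12 macrophage genes none was called by limma at an adjusted p under 0.05, and Csf1r, the receptor that defines the lineage, differed by -0.15 ± 0.14. Of 9 mesonephric genes, 4 fell and all 4 held. Pax8, a kidney and duct factor, had levels of -0.35, -1.01, -1.12 and -1.15 in XY KO gonads, against 1.95, 1.12, 0.76 and 0.91 in XX KO gonads, and fell by 2.09 ± 0.30, while its other probe was at the limit in 7 of the 8 KO samples. Gata3 and Cdh16 fell by 1.93 ± 0.32 and 2.56 ± 0.39. Pax2, which marks the mesonephric duct and tubules, was not called (0.29 ± 0.20). The mean ratio over the mesonephric list ran from 0.632 to 1.19 in XY KO gonads and from 1.20 to 2.96 in XX KO gonads, and its part in the lower calls of Wt1, Emx2 and the retinoic acid genes was not tested.

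Of 13 pan-germline genes 1 fell, of 14 meiosis genes 1 fell, and of 11 pluripotency and male germ cell genes none was called by limma. Each count lies below the 18.1% of all autosomal genes called in either direction, but this low share was partly fixed in advance. Asz1, Sycp1 and Nanos2 were at the limit in all 8 KO samples and could not be called. They passed the filter only through het samples. In het gonads, all 14 meiosis genes were lower in XY gonads, although the interaction was called for Meioc alone among the members of these 3 lists. Stra8, which retinoic acid induces at meiotic entry, had levels of -4.98, -6.18, -6.38 and -6.26 in XY KO gonads, against -6.21, -2.85, -2.07 and 0.03 in XX KO gonads. XX KO gonads therefore had more Stra8 RNA on each later day, well below the 3.97 to 7.55 of XX het gonads, and the mean difference of -3.17 ± 1.06 was not called (adjusted p = 0.070, limma) but passed without E12.5 (-4.64, adjusted p = 0.0065). Rec8, a meiotic cohesin, had levels of -1.83, -2.01, -2.38 and -2.61 in XY KO gonads, against -0.23, 0.44, 0.10 and 0.03 in XX KO gonads. It fell by 2.29 ± 0.51, a call lost without E13.5 or E14.5. Tdrd5, a piRNA pathway gene, fell by 2.50 ± 0.57 without holding, and its other probe was at the limit in all 8 KO samples. Ddx4 and Dazl were not called (0.55 ± 0.55 and -0.32 ± 0.44).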

How the data were processed

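Agilent one-colour arrays (Cy3) were hybridised with RNA of whole gonads, dissected in PBS and stored in RNAlater per the labels' protocols. The deposited values are linear ratios of a probe's signal to its typical signal, as the authors deposited them; the scanner software was Agilent Feature Extraction 9.5 per the submitters' processing notes, and the normalization is not given in the sources used here. Of 41267 probes, 93 controls were left out. Gene symbols came from the platform annotation (32664 probes with 1 symbol, 45 with several, 8465 without a listed gene), and 32524 were matched to RefSeq GRCm38.p6 for their chromosome. On the log2 scale the arrays were scaled to the same percentile, 75, of the probes never at the limit. A value was taken as at the detection limit where a probe's lowest values sat at the same distance from the array's floor, within 0.0002 on the log2 scale, in several samples, and every probe was then given the highest limit of the arrays. Each gene was represented by the probe with the fewest samples at the limit, then the highest mean, and genes with fewer than 4 of the 16 samples above the limit were left out.

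Differences were fitted with limma 3.58.1 (R 4.3.3) over all 16 samples, with each day of each genotype as a block, a sex effect in each genotype and Benjamini-Hochberg adjustment over 16581 genes. The interaction and the slope per day came from the same kind of fit. The day pairs the samples by the labels: deviations from the group means of XY KO and XX KO samples of the same day correlated at 0.19, 0.64, 0.44 and 0.44. P-values of the differences and the interaction measure the spread between days of the XY minus XX difference, pooled over KO and het pairs. The fit was tested on simulated data, with 4 false calls among the unchanged of 16581 genes.

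The members and gene lists were chosen with earlier results of these data known, so list counts are descriptions and carry no test. Any member of a list could be named. Outside the lists, the rule was the 12 largest differences in each direction above the limit in all 8 KO samples, the 6 largest bounds, the 6 largest interactions and the 6 steepest slopes in each direction, and the text names some of these. List genes without a tested probe, among them Insl3 and Lhcgr, were not analysed here. A housekeeping list had no called gene of 9 (median 0.09). Other scalings, filters, probe choices, variance models and day models were tried.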

Additional observations from a re-analysis of the deposited data

Results flagged for a closer look

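In 366 groups of 4 samples (186 named genes in XY KO and XX KO gonads), 25 groups had 1 sample far from the other 3. Among true replicates chance alone flags about 1 group in 20. The 4 samples here are of different days, so that rate does not apply where levels change with day. Of these samples 21 were of E12.5, 2 of E13.5 and 2 of E14.5.

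Among XY KO gonads at E12.5, levels were high for Rasgrp1 (-3.34, others -6.71 to -6.27), Nos1 (-2.74, others -4.61 to -4.36), Irx3 (-2.91, others -4.55 to -4.44), Irx5 (-1.35, others at -3.27) and Bmp2 (-0.76, others -1.52 to -1.40). Levels were also high there for Tal1 (0.56, others -0.21 to -0.09) and Stra8 (-4.98, others -6.38 to -6.18), and low for Fdx1 (0.29, others 2.26 to 2.56) and Heyl (0.53, others 1.81 to 1.88). Lhx9 was high in XY KO gonads at E14.5 (0.87, others 0.12 to 0.24).

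Among XX KO gonads at E12.5, levels were high for Dmrt1 (-0.57, others -4.25 to -4.13), Cbln4 (-1.16, others -2.97 to -2.81), Notum (2.47, others 0.80 to 0.87), Gramd1b (0.63, others -0.58 to -0.39), Mc2r (0.16, others -0.76 to -0.68) and Cdk1 (-0.29, others -0.75 to -0.71). Levels were low there for Oprk1 (1.68, others 4.84 to 4.98), Tmem130 (-1.03, others 0.50 to 0.78), Defb19 (-5.02, others -3.36 to -3.06), Wnt2b (0.70, others 1.42 to 1.48), Hsd3b1 (-3.28, others -0.82 to -0.38) and Acta2 (-2.65, others -0.13 to 0.35). In XX KO gonads, Kdm5d and Cyp21a1 stood apart at E13.5 (-4.33 and -0.31) because the other 3 samples were at the same level, and Hspa1a at E14.5 (0.16, others -0.20 to -0.16).

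The sex difference in KO gonads minus that in het gonads was called by the interaction in limma for 8 named genes. It was 2.65 for Mybl1, 2.64 for Zfyve28, 2.43 for Taf4b and 4.22 for Meioc, and -5.31 for Ucma, -4.95 for Creg2, -3.87 for Skap1 and -3.51 for Tmem130.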

How the results depend on the processing

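Precision was limited by 4 samples a group and by 4450 to 11174 probes at the detection limit in each KO sample. Of 202 results for named genes, 126 kept their side of the threshold in every alternative run. Of these, 10 that were called in no setting changed sign, among them Gata4, Lhx9, Ihh, Pecam1 and Mki67, and no called result did. With 1 day left out, the count of autosomal genes higher in XY KO gonads ranged from 703 (without E14.5) to 1693 (without E12.5), with 776 without E13.5 and 897 without E15.5, that of lower genes from 674 to 1668, with 856 and 864, that of at least 2-fold lower genes from 565 to 1060, and the interaction from 0 to 586. The slope then had 0 calls in each fit, with 1167 to 2807 genes at an unadjusted p under 0.05. Array weights gave 2607 higher, 2614 lower and 1237 interaction calls. The interaction had 13 calls with the arrays as deposited, 8 with no filter, 49 with no variance trend and 129 when KO and het samples of the same sex and day were paired, an alternative chosen after seeing the data. The slope had 78 calls with the arrays as deposited, 260 after quantile normalization, 19 with no filter and 0 with only the 8 KO samples, where fewer samples were fitted. The cause of the other changes was not tested. Of the calls, 49.7% were higher in XY KO gonads, against 57% with the arrays as deposited, where the median of all genes was 0.11, and 44.3% after quantile normalization (median 0.00).

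Without the block for embryonic day that pairs the samples, 1003 autosomal genes were higher and 986 lower. Among named genes the calls of Tcf21, Cldn11, Nr5a1, Irx1, Lgr4, Dkk1, Spry1, Etv4, Etv5, Gli3, Acta2, Col9a1, Rdh10, Cpa3, Cma1, Tal1 and Hemgn were then lost, as were the interactions of Mybl1, Taf4b, Skap1 and Tmem130, while Amhr2 was called (-1.10). With the arrays as deposited, Krt18, Cma1, Tal1 and Hemgn and the interactions of Zfyve28 and Meioc also lost their calls, and Dmrt1 gained one (3.36). Cdh5 lost its call after quantile normalization (0.40). With only the 8 KO samples fitted, the calls of Oprk1, Gfi1b, Hsd17b1, Irx1, Lgr5, Wnt5a, Wnt9a, Spry4, Star, Gramd1b, Hsd3b6, Sqle, Cxcl12, Col9a1, Crabp1, Jag1, Cdh5, Cpa3, Cma1, Epb42, Tal1, Hemgn, Tdrd5 and Hspa1a were lost. With no filter on genes at the limit, which adds genes to the adjustment, Gfi1b, Krt18, Nr5a1, Foxl2, Lgr5, Wnt5a, Wnt9a, Spry4, Gramd1b, Cxcl12, Jag1, Cpa3, Cma1, Epb42, Tal1, Hemgn and Tdrd5 lost theirs, as did the interactions of Zfyve28, Creg2, Skap1, Tmem130 and Meioc. The mean of all probes moved several called differences by over 1.5 times, and those named next kept their calls. Among them were Sox10 (2.35), Nt5e (4.08), Slc9a2 (2.88), Nos1 (-3.30), Cd244a (-2.07), Lgr4 (-0.42), Boc (-0.46), Vcam1 (1.23) and Wnt9a (-1.85). The same held for Mybl1 (0.71), Acta2 (0.997), Pax8 (-1.11), Rnf43 (-1.91), Rasgrp1 (-3.93), Lgr5 (-1.38) and Ptch1 (1.62).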
